A study of Mus musculus with 2 samples.

Results

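Ggt1 (ENSMUSG00000006345) and AA467197 (ENSMUSG00000033213) are 2 of the 32285 genes listed in the UMI tables of donor T cells taken from mice after allogeneic bone marrow transplantation. They were chosen by their lower level at day +14 than at day +7, so the difference between the days is given here as a description, with no test, and what is examined further is how each transcript is spread over cell gates, over single cells and over cell states within each library. Ggt1 encodes γ-glutamyltransferase 1, an enzyme of the outer cell surface that removes the γ-glutamyl group of extracellular glutathione. AA467197, also called Nmes1 and the mouse ortholog of human C15orf48, encodes a small mitochondrial protein related to NDUFA4.

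The data are 2 single-cell RNA-Seq (scRNA-seq) libraries, 1 from day +7 and 1 from day +14, with cells pooled from 5 spleens. Irradiated BALB/c recipients were given C57BL/6 bone marrow depleted of T cells together with naive splenic C57BL/6 T cells, the labels giving naive cells and a dose of 0.2 × 10⁶ T cells, whereas a legend of the study gives another dose and does not call the T cells naive. Donor T cells were sorted from spleen as CD45+H2Kb+H2Kd-TCRβ+, the names of both libraries carry the word PBS, and the day was taken from the title because the labels describe the sort at day +7 for both. Both groups are therefore donor T cells of C57BL/6 mice under graft-versus-host disease, without an untransplanted or syngeneic control, and day, library and pool cannot be told apart.

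Of 7355 barcodes at day +7 and 8043 at day +14, 7179 and 7794 passed the limits of 500 to 7500 genes and at most 15% mitochondrial UMIs, with 86745047 and 83808218 UMIs and medians of 9210 and 8144 UMIs per cell. The label of the sort held for most barcodes, since 6936 and 7621 had at least 3 UMIs of the 6 TCR and CD3 genes and no erythroid or myeloid signature. CD8 T cells numbered 5820 and 5956, and CD4 T cells without Foxp3 numbered 458 and 696. B cell genes (3 of 5 detected at day +7 and 5 of 5 at day +14) reached 22.2 and 3.17 CPM in CD8 T cells, and the NK genes Ncr1 and Klrb1c 7.70 and 0.697 CPM, which moved with the day as both genes did; their part in the results was not tested. The libraries shared 20 barcode sequences.

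Glutathione holds cysteine in a peptide, and γ-glutamyltransferase opens the breakdown of glutathione outside cells by leaving cysteinylglycine, which dipeptidases split so that the cysteine can be taken up and reused. Cytochrome c oxidase, complex IV of the respiratory chain, passes electrons to oxygen, and NDUFA4 is a subunit of it. The AA467197 protein can take the place of NDUFA4 in complex IV in inflamed or stimulated cells, and its transcript is also the host of miR-147. Expanding T cells need both cysteine and respiration, and the genes around these steps were listed beside the pair.

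In the GENCODE M21 annotation of GRCm38, Ggt1 lies at chr10:75561604-75586200 on the plus strand, with 20 transcripts of which 18 are coding, and no other annotated gene overlaps it. AA467197 lies at chr2:122636986-122641191 on the plus strand, with 4 transcripts of which 3 are coding, and the only gene that overlaps it is Mir147, at chr2:122640803-122640881 in its last exon. Mir147 is not among the genes listed in the tables, so the UMIs of AA467197 report the host transcript and not the miRNA. The mature 5p strand, at chr2:122640814-122640837 (RefSeq, GRCm38.p6), is shown because it is part of the transcript counted here, with the seed, bases 2 to 8, in capitals. No other of the 1738 mature miRNAs in that table carries this seed. The other mature strand of miR-147 was not listed there, so its sequence and seed are not shown.
mmu-miR-147-5p: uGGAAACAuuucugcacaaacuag

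The promoters are shown because both transcripts were lower at day +14 although the genes lie on different chromosomes. RefSeq gives AA467197 1 promoter window, from 250 bases before to 50 bases after the start, and Ggt1 4 such windows, of which the one with an E-box is printed. Capitals mark letters that match any of 6 motifs searched on both strands: AP-1 (TGANTCA), NF-κB (GGG and CC with 5 bases of any kind between), the antioxidant response element core (TGANNNNGC), the E-box (CACGTG), ETS (CCGGAAGT) and T-box (AGGTGTGA).
AA467197 promoter, chr2:122637637-122637936, plus strand: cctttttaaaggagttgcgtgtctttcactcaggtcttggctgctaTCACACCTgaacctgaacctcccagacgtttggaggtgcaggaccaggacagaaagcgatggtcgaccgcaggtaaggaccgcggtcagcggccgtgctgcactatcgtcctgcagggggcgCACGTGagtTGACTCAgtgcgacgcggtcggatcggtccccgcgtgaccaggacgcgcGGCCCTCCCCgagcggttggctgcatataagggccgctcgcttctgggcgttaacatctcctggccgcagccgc
Ggt1 promoter 2, chr10:75568412-75568711, plus strand: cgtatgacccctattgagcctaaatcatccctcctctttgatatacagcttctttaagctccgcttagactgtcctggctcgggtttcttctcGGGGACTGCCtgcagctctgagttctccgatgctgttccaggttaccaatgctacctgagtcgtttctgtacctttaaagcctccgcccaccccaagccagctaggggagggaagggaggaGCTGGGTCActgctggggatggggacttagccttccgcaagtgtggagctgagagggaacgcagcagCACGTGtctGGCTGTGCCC

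The AA467197 window was 62.7% G and C with 29 CG dinucleotides, and the printed Ggt1 window 56.3% with 10, against a median of 52.7% over the 32851 windows of 27025 genes. AA467197 held a T-box match at position -204 from the start, an E-box at -82, an AP-1 match at -73 and an NF-κB match at -24. These letters occur in 1.28%, 7.15%, 7.81% and 50.8% of all windows, so the T-box match was the rarest and the NF-κB match common. The printed Ggt1 window held an E-box at 31, NF-κB matches at -157 and 40 and an antioxidant core at -36, the last present in 41.3% of windows. Ggt1 windows 1 and 3 held antioxidant core matches, window 3 also NF-κB matches, and window 4 none of the 6. The E-box was the only one of the less common motifs, those in under 10% of windows, that occurred in windows of both genes, and a match is not evidence of binding.

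Both transcripts were several-fold lower in the day +14 library, in the full set of kept cells and in CD8 T cells alike. Ggt1 amounted to 86.3 UMIs per 10⁶ UMIs (CPM) [95% Poisson interval 84.4, 88.3] at day +7 and 16.1 CPM [15.2, 17.0] at day +14, from 7487 and 1349 UMIs. AA467197 amounted to 139 CPM [137, 142] and 31.0 CPM [29.8, 32.2], from 12082 and 2596 UMIs. The log2 ratio of day +14 over day +7 was -2.42 [-2.51, -2.34] for Ggt1 and -2.17 [-2.23, -2.11] for AA467197, where the brackets are exact binomial intervals for counting error only and do not cover differences between mice. Levels are not compared between the 2 genes, because a 3' tag count depends on the transcript.

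With 1 library per day there is no test, and these ratios are the values that chose the genes. Both lay at least 2-fold lower at day +14, as did 1.39% of the 6919 genes with a mean of 10 CPM or more, whose median log2 ratio was 0.18. Among the 2752 genes at 50 CPM or more, Ggt1 was 9th and AA467197 11th from the lowest ratio. Fcer1g, the signaling chain shared by several Fc and NK receptors, stood between them at -2.25. Just below Ggt1 came the histone gene Hist1h2ap at -2.57 and Ifitm3, an interferon-induced membrane protein, at -2.70. Just above AA467197 came Hist1h4h and the chemokine receptor gene Ccr2, both at -2.14. Among the genes named beside the pair, only Hist1h2ap reached 50 CPM in both libraries.

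**Figure D1:**
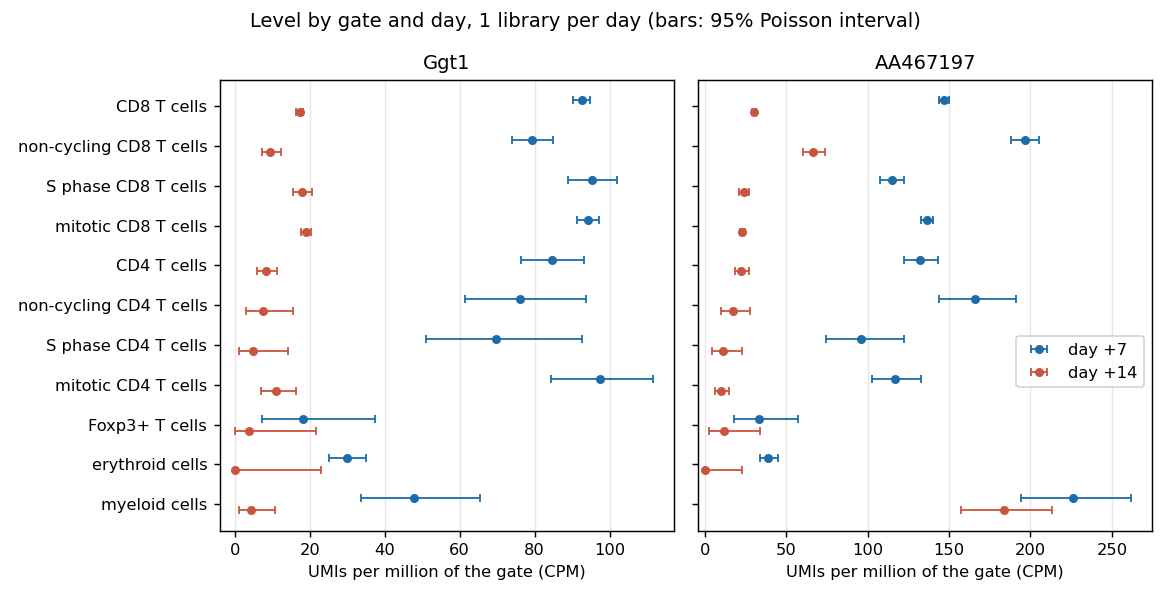
Level (CPM, x axis, linear) of Ggt1 and AA467197 in 11 gates (y axis) at day +7 (blue) and day +14 (red), 1 library each, with 95% Poisson intervals as bars. Ggt1 is lower at day +14 in every gate of CD8 and CD4 T cells, whereas AA467197 in myeloid cells is 226 CPM at day +7 and still 184 CPM a week later.

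The lineage gates were compared next, with CD8 T cells taken as cells with Cd8a or Cd8b1 and no Cd4 UMI, and CD4 T cells as the reverse, both without Foxp3. In CD8 T cells, Ggt1 was 92.5 CPM [90.2, 94.8] at day +7 and 17.3 CPM [16.3, 18.3] at day +14. In CD4 T cells it was 84.5 CPM [76.4, 93.3] and 8.39 CPM [6.05, 11.3], the latter from 42 UMIs. The 2 lineages thus held Ggt1 at levels with overlapping intervals at day +7 and at separate levels at day +14. The log2 ratio of CD4 over CD8 was -0.13 [-0.28, 0.016] at day +7 and -1.04 [-1.52, -0.60] at day +14, where 57 of 7198 genes had a lower ratio.

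AA467197 was 147 CPM [144, 150] and 30.1 CPM [28.8, 31.5] in CD8 T cells and 132 CPM [122, 143] and 22.6 CPM [18.6, 27.1] in CD4 T cells. CD4 T cells were therefore slightly lower than CD8 T cells on both days, with log2 ratios of -0.15 [-0.27, -0.032] and -0.42 [-0.70, -0.14]. Between the days, the log2 ratio was -2.42 for Ggt1 and -2.29 for AA467197 in CD8 T cells, and -3.33 and -2.55 in CD4 T cells. Both genes were at least 2-fold lower in each lineage, as were 1.45% of genes in CD8 and 1.27% in CD4 T cells. Median depth in CD4 T cells moved as well, from 8259.5 to 5340 UMIs per cell. At 4000 UMIs per cell, which left out 13 and 200 shallower CD4 T cells, their log2 ratios were -3.19 for Ggt1 and -2.65 for AA467197. The part of depth in the CD4 values was not tested further.

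Foxp3 marks regulatory T cells, and T cells with a Foxp3 UMI and no Cd8 UMI were few, with 41 at day +7 and 39 at day +14. A further 153 and 51 T cells had UMIs of both Foxp3 and Cd8, and these entered no lineage gate. At day +7 those without Cd8 held 7 UMIs of Ggt1 (18.1 CPM [7.27, 37.3]) and 13 UMIs of AA467197 (33.6 CPM [17.9, 57.5]). Both were below the level of the CD4 gate, with log2 ratios of -2.22 [-3.55, -1.17] for Ggt1 and -1.98 [-2.90, -1.19] for AA467197. A Cd4 UMI was required in the CD4 gate but not in the cells with Foxp3. At day +14 only 1 and 3 UMIs were found, and no difference from the CD4 gate was detectable at this depth. The T cells with Foxp3 and Cd8 gave 41.8 CPM [33.8, 51.2] of Ggt1 and 116 CPM [102, 131] of AA467197 at day +7, and 14.9 CPM [7.71, 26.1] and 37.3 CPM [25.2, 53.3] at day +14. The cells without Cd8 do not share UMIs with the CD4 gate, but all come from 1 library per day.

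CD8 T cells were then divided by the cell cycle at 4000 UMIs per cell, with mitotic cells carrying at least 4 of 15 mitotic genes, S phase cells at least 4 of 15 replication genes and fewer mitotic ones, and non-cycling cells at most 1 of each. Ggt1 at day +7 was 79.2 CPM [73.9, 84.9] in non-cycling, 95.2 CPM [88.9, 102] in S phase and 94.2 CPM [91.2, 97.3] in mitotic CD8 T cells. At day +14 it was 9.46 CPM [7.14, 12.3], 17.9 CPM [15.5, 20.5] and 18.9 CPM [17.6, 20.3]. Non-cycling cells were the lowest on both days, and S phase and mitotic cells did not differ beyond their intervals. The log2 ratio of non-cycling over mitotic cells was -0.25 [-0.36, -0.14] at day +7 and -1.00 [-1.42, -0.61] at day +14, where 655 of 7038 genes had a lower ratio.

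AA467197 showed the opposite order. At day +7 it was 196 CPM [188, 205] in non-cycling, 115 CPM [108, 122] in S phase and 136 CPM [133, 140] in mitotic CD8 T cells. At day +14 it was 66.7 CPM [60.3, 73.6], 24.0 CPM [21.2, 27.0] and 23.1 CPM [21.6, 24.6]. Non-cycling cells were the highest on both days, and the gap was wider at day +14, with a log2 ratio of non-cycling over mitotic cells of 0.53 [0.45, 0.60] at day +7 and 1.53 [1.36, 1.70] at day +14.

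Against all genes, AA467197 was not among the 2.19% of 6528 genes that were at least 2-fold higher in non-cycling than in mitotic CD8 T cells at day +7, and Ggt1 was not either. At day +14 AA467197 was among the 3.4% of 7038 genes past that fold, with 57 genes at a higher ratio, and Ggt1 was not. The difference between the days was accordingly unlike in the 2 genes: in non-cycling cells the log2 ratio was -3.07 [-3.48, -2.67] for Ggt1 and -1.56 [-1.72, -1.40] for AA467197, whereas in mitotic cells it was -2.31 [-2.43, -2.20] and -2.56 [-2.66, -2.46]. In S phase cells it was -2.41 and -2.26. Both genes were at least 2-fold lower at day +14 in each of these gates, as were 1.54% of genes in non-cycling, 1.37% in S phase and 1.43% in mitotic CD8 T cells.

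**Figure D2:**
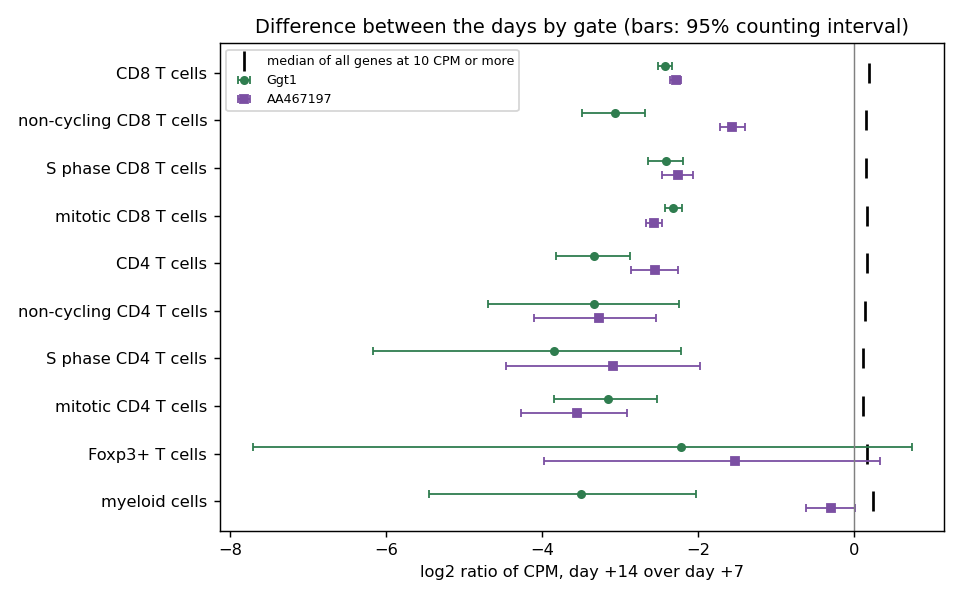
Log2 ratio of CPM at day +14 over day +7 (x axis) in 10 gates (y axis) for Ggt1 (green circles) and AA467197 (purple squares), with 95% counting intervals, and the median of all genes at 10 CPM or more in the same gate (black ticks). In non-cycling CD8 T cells the ratio is -3.07 for Ggt1 and -1.56 for AA467197, and the intervals do not overlap, while in S phase cells they do.

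In CD4 T cells AA467197 was also highest in non-cycling cells on both days, beyond counting error at day +7. It was 166 CPM [144, 191] in non-cycling, 96.2 CPM [74.3, 123] in S phase and 117 CPM [103, 133] in mitotic CD4 T cells at day +7. At day +14 it was 17.2 CPM [9.84, 28.0], 11.3 CPM [4.54, 23.3] and 9.97 CPM [6.17, 15.2], with overlapping intervals. The log2 ratio of non-cycling over mitotic CD4 T cells was 0.51 [0.23, 0.78] at day +7 and 0.79 [-0.25, 1.80] at day +14. Non-cycling CD4 T cells lay below non-cycling CD8 T cells, by a log2 ratio of -0.24 [-0.46, -0.030] at day +7 and -1.95 [-2.78, -1.24] at day +14, where 42 of 7037 genes had a lower ratio. Ggt1 in non-cycling CD4 T cells was 76.2 CPM at day +7 and 7.53 CPM at day +14, from 90 and 7 UMIs, and was not told apart from non-cycling CD8 T cells on either day.

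The number of cells in which each transcript was found was compared after every cell had been thinned to 4000 UMIs, which left out 96 and 478 shallower CD8 T cells. Ggt1 was found in 29.4% [28.2, 30.6] of CD8 T cells at day +7 and 6.32% [5.69, 6.99] at day +14 (53.5% and 13.8% with all UMIs). AA467197 was found in 37.9% [36.7, 39.2] and 11.0% [10.2, 11.9] (58.1% and 19.6% with all UMIs). In non-cycling CD8 T cells the share was 23.7% and 3.44% for Ggt1 and 43.3% and 20.4% for AA467197. The share of cells with a UMI falls with the level itself, so it does not tell fewer expressing cells from less RNA per cell. Cells of the erythroid gate, which should lack T cell transcripts, gave 10.4% (13 of 125 cells, median depth 36671.5 UMIs) for each gene at day +7.

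UMIs of AA467197 were more unevenly spread over cells than those of Ggt1. In CD8 T cells at day +7 the variance over the mean was 1.77 for AA467197 and 1.19 for Ggt1. AA467197 was at 0 in 62.1% of cells, whereas a Poisson spread with the same mean would put 52.1% at 0, and it reached 10 UMIs in a cell. For Ggt1 these shares were 70.6% and 68.3%, and the highest cell had 5 UMIs. At least 3 UMIs of AA467197 were held by 8.83% of non-cycling, 4.01% of S phase and 5.85% of mitotic CD8 T cells at day +7, and by 1.98%, 0.102% and 0.508% at day +14.

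**Figure D3:**
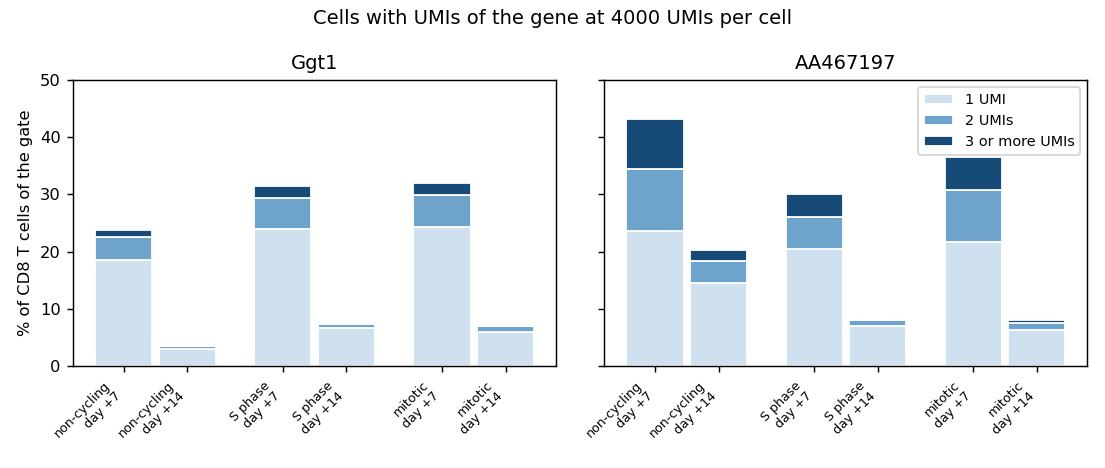
Share of non-cycling, S phase and mitotic CD8 T cells (y axis, percent of the cells of the gate) with 1, 2 or at least 3 UMIs (light to dark) of Ggt1 and of AA467197 at 4000 UMIs per cell, at day +7 and day +14. The bar for AA467197 in non-cycling cells goes from 43.3% at day +7 to 20.4% at day +14, and that for Ggt1 from 23.7% to 3.44%.

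Ifitm transcripts were enriched in CD8 T cells with AA467197. At least 1 Ifitm UMI was found in 61.1% of the cells with AA467197 and 34.9% of those without at day +7, and in 9.75% and 2.26% at day +14, so at day +14 most cells with AA467197 had none. Ifitm1, Ifitm2 and Ifitm3 encode interferon-induced transmembrane proteins that restrict virus entry. In CD8 T cells at day +7, Ifitm1 was 990 CPM in the 2171 cells with a UMI of AA467197 and 318 CPM in the 3553 cells without, a log2 ratio of 1.64 [1.58, 1.69] and the highest of 2419 genes at 50 CPM or more. Ifitm2 (1.48), Ifitm3 (1.32), Anxa1 (1.10), which encodes the phospholipid-binding annexin A1, and Itga1 (0.86), the α chain of a collagen-binding integrin, followed. At day +14 Ifitm1 was 115 CPM in the 605 cells with AA467197 and 6.21 CPM in the 4873 cells without (4.22 [3.90, 4.54]), followed by Gm36723 (2.09), Fcer1g (1.98), Fgl2 (1.25), a secreted fibrinogen-like protein, and the granzyme gene Gzma (1.20). A gene entered this order when it reached 50 CPM in either group of cells. Anxa1 and Itga1 at day +7, and Ifitm1, Gm36723, Fcer1g and Fgl2 at day +14, did so only through the cells with AA467197, where they are high. These ratios are therefore a description. At day +14 the mean over both groups was 18.3 CPM for Ifitm1, 35.0 CPM for Gm36723 and 23.5 CPM for Fcer1g. When a mean of 10 CPM over both groups was asked for instead, a choice made after the values were seen, the order of 6473 genes at day +7 was Ifitm1, Klrb1b (1.58), Ifitm2, Ifitm3 and Gzmc (1.18). The order of 7010 genes at day +14 was then Ifitm1, Itga1 (2.10), Gm36723, Fcer1g and H2-Eb1 (1.97), an MHC class II gene, so the genes behind Ifitm1 depended on the filter.

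Cells without AA467197 held more of other transcripts. At day +7 these were Chchd10, a mitochondrial protein gene (log2 ratio of cells with over cells without AA467197 -1.01), Tox, a nuclear factor of exhausted and memory-like CD8 T cells (-0.87), Hmgn1 (-0.71), Fabp5 (-0.71) and the histone gene Hist1h1a (-0.58). At day +14 they were the chemokine gene Xcl1 (-1.40), Igkc (-1.21), Ikzf2 (-1.05), and the condensin genes Ncapd3 (-0.97) and Ncapg (-0.95). All of these except Hmgn1 and Igkc reached 50 CPM only through the cells without AA467197, where they are high. Their ratios are therefore a description. The S phase list as a whole was 950 CPM in cells with and 1217 CPM in cells without AA467197 at day +7, and 1097 and 1587 CPM at day +14. The myeloid list was 46.2 and 51.9 CPM at day +7 and 89.3 and 72.3 CPM at day +14. The T cell gate leaves out cells rich in these genes, so low values here are set by the gate. The NK list was 15.4 CPM in cells with and 8.44 CPM in cells without AA467197 at day +7, and 1.65 and 0.667 CPM at day +14. The part of myeloid or NK transcripts in these ratios was not tested.

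Levels were therefore followed along the number of Ifitm UMIs in a CD8 T cell, a division made after these values had been seen. At day +7 AA467197 was 99.4 CPM [93.9, 105] in cells with no Ifitm UMI, 162 CPM with 1, 186 CPM with 2, 250 CPM with 3 to 5 and 317 CPM [299, 335] with 6 or more. Ggt1 moved less, from 82.6 CPM [77.6, 87.7] with none to 125 CPM [111, 141] with 3 to 5 and 110.4 CPM [100.1, 121] with 6 or more. At day +14 AA467197 was 33.2 CPM [30.8, 35.8] in the 5309 cells with none, which held 706 of its 815 UMIs (1255 of 3729 at day +7), 76.6 CPM [53.0, 107] with 1 and 375 CPM [263, 519] in the 24 cells with 6 or more. The bins between these held 16 and 18 cells, at 281 and 292 CPM.

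**Figure D4:**
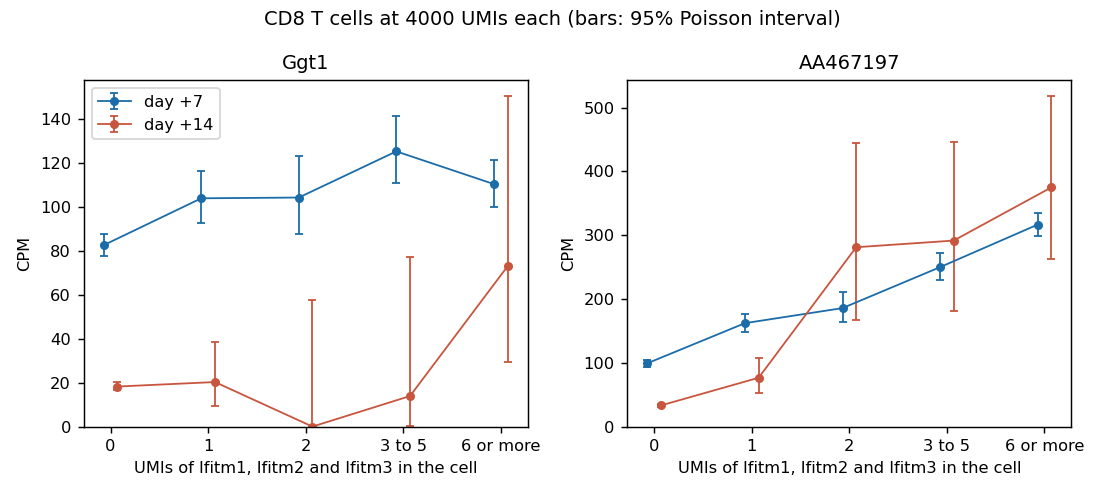
CPM (y axis) of Ggt1 and AA467197 in CD8 T cells at 4000 UMIs each, by the number of UMIs of Ifitm1, Ifitm2 and Ifitm3 in the cell (x axis), at day +7 (blue) and day +14 (red), with 95% Poisson intervals. AA467197 goes from 99.4 to 317 CPM along the bins at day +7 and from 33.2 to 375 CPM at day +14, where the last 3 bins hold 16, 18 and 24 cells.

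Cells with at least 3 Ifitm UMIs made up 26.0% [24.9, 27.2] of CD8 T cells at day +7 (1489 of 5724) and 0.767% [0.553, 1.03] at day +14 (42 of 5478). In them AA467197 was 293 CPM at day +7 and 339 CPM at day +14. Their log2 ratio was 0.21 [-0.19, 0.59] at 4000 UMIs and -0.13 [-0.44, 0.16] with all UMIs, so a difference between the days was not detectable. In the cells with fewer Ifitm UMIs it was 117 and 34.9 CPM, a log2 ratio of -1.75 [-1.87, -1.63]. Ifitm-high cells held 46.8% of the AA467197 UMIs of CD8 T cells at day +7 and 6.99% at day +14.

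Ggt1 was lower at day +14 on both sides of this division. It was 116 and 47.6 CPM in cells with at least 3 Ifitm UMIs (-1.28 [-2.50, -0.29], from 689 and 8 UMIs) and 88.0 and 18.2 CPM in the others (-2.27 [-2.44, -2.11]). The day +14 value of the Ifitm-high cells rests on 42 cells of 1 library, and no CD8 T cell among the barcodes shared by the libraries was among them. Non-cycling CD8 T cells gave the same picture with 17 cells at day +14, in which AA467197 was 353 CPM against 329 CPM at day +7 (0.10 [-0.55, 0.69]).

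Other states of non-cycling CD8 T cells also differed in AA467197. At day +7 it was 227 CPM in cells with at least 3 UMIs of Gzma, a granzyme of cytotoxic cells, and 141 CPM in the others (log2 ratio 0.68 [0.54, 0.83]). At day +14 these values were 125 and 62.4 CPM (1.00 [0.54, 1.42], from 51 and 344 UMIs). Cytotoxic, Gzma-high cells were thus higher on both days. Cells with Tcf7, which encodes the factor TCF1 of stem-like and naive T cells, were lower, at 75.8 CPM against 204 CPM at day +7 (-1.43 [-1.88, -1.02]) and 13.5 CPM against 73.4 CPM at day +14 (-2.44 [-3.58, -1.50], from 9 and 386 UMIs).

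Tox separated the cells beyond counting error at day +7: AA467197 was 122 CPM with and 219 CPM without a Tox UMI (-0.85 [-1.04, -0.67]), and 63.4 and 72.5 CPM at day +14 (-0.19 [-0.49, 0.11]). Cells with at least 5 UMIs of the chemokines Ccl3, Ccl4 and Xcl1 held less AA467197 than the others at day +7 (log2 ratio -0.36 [-0.63, -0.096], from 128 and 1873 UMIs), and 63.4 against 67.7 CPM at day +14.

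In non-cycling cells at day +7 the ratios of Ggt1 were smaller than those of AA467197 for Ifitm, Gzma, Tcf7 and Tox, with overlapping intervals for Tcf7, and of like size for the chemokines. In non-cycling CD8 T cells at day +7 it was 99.1 CPM in Ifitm-high cells and 70.3 CPM in the others (0.50 [0.29, 0.70]), and 47.4 CPM with and 81.3 CPM without Tcf7 (-0.78 [-1.36, -0.25]). Gzma (0.11 [-0.11, 0.32]) and Tox (-0.035 [-0.28, 0.20]) did not separate it beyond counting error there, whereas at day +7 Gzma-high cells were higher in S phase, at 102 against 80.2 CPM (0.35 [0.12, 0.58]), and in mitosis, at 98.2 against 84.3 CPM (0.22 [0.12, 0.33]). With and without Tox, Ggt1 at day +7 was 109.7 and 91.8 CPM in S phase (0.26 [0.013, 0.49]) and at a log2 ratio of 0.011 [-0.11, 0.13] in mitosis. With and without the chemokines Ggt1 was 62.3 and 80.7 CPM in non-cycling (-0.37 [-0.81, 0.036]), 64.1 and 97.2 CPM in S phase (-0.60 [-1.13, -0.11]) and 67.6 and 95.1 CPM in mitotic cells at day +7 (-0.49 [-0.81, -0.20]), and AA467197 was at 0.34 [-0.014, 0.67] in S phase and -0.49 [-0.75, -0.24] in mitotic cells. At day +14 non-cycling cells held 56 UMIs of Ggt1, too few to divide. In mitotic CD8 T cells at day +14, Ggt1 was 29.9 CPM in Gzma-high cells and 18.1 CPM in the others (0.73 [0.40, 1.04]), and 12.9 CPM with and 19.9 CPM without the chemokines (-0.63 [-0.99, -0.29]), where AA467197 was 24.9 and 22.8 CPM (0.13 [-0.14, 0.38]).

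Over all CD8 T cells at day +7, cells with Ggt1 differed little from the others among genes at 50 CPM or more. The 5 genes with the highest ratio were Ifitm2 (0.47), the spindle gene Tacc3 (0.44), AA467197 itself (0.40 [0.31, 0.50]), 1500009L16Rik (0.38) and Fcer1g (0.36). The lowest were the interferon-induced gene Ifi27l2a and the chemokine gene Ccl5, both at -0.64, Il7r (-0.47), the receptor chain for IL-7, Ccnd2 (-0.45) and Bcl2l11 (-0.42). At day +14 the 346 cells with Ggt1 were higher in 1500009L16Rik (1.40), Rom1 (1.14), Gm2682 (0.91), Lgals3, which encodes galectin-3 (0.91), and Rasgrp2 (0.89), and lower in Xcl1 (-1.92), Rbpj (-1.16), Cd7 (-0.81), Serpina3g (-0.75) and Mxd4 (-0.72). 1500009L16Rik was the only gene among the 5 highest on both days at 50 CPM in either group of cells, a level that Rom1 and Gm2682 reached at day +14 only in the cells with Ggt1. Tacc3 reached it at day +7 only in the cells with Ggt1. Bcl2l11 at day +7 and Xcl1, Rbpj and Mxd4 at day +14 reached it only in the cells without. With a mean of 10 CPM over both groups, Mbnl3 (0.71) and Coq3 (0.65) had the highest ratios at day +7 and Ifitm1 (1.60) and 1500009L16Rik (1.40) at day +14, and no gene was among the 5 highest on both days. Within non-cycling CD8 T cells at day +7 the differences were larger. Xcl1 was 12.5 CPM in the 341 cells with Ggt1 and 88.4 CPM in the 1097 without (-2.83 [-3.62, -2.13]). It reached 50 CPM only in the latter, so this ratio is a description. Ifi27l2a was at -0.85 and Fcer1g at 0.75 there.

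The 2 transcripts met in the same cell slightly more often than the product of their shares. In CD8 T cells at day +7, 736 cells held both, against 638 cells from the product, a ratio of 1.15, and at day +14 47 cells did, against 38.2, a ratio of 1.23. AA467197 was found in 43.8% of cells with Ggt1 and 35.5% of cells without it at day +7, and in 13.6% and 10.9% at day +14. Within non-cycling CD8 T cells at day +7 the ratio was 1.21, from 178 cells. These are cells of 1 library per day at equal depth, and no test was made.

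Across 15 sums of a day and a gate with at least 50 cells, which share libraries, the 2 genes shared the difference between the days, which chose them. Pearson's r of log2(CPM + 1) between them was 0.62, and -0.049 once the mean of each day had been subtracted. The genes most like Ggt1 were mt-Atp8 (0.95), Gzmm, Gpr55, Gm10076 and Gzmc as measured, and Oma1 (0.92), Serpinb9, Impdh1, Esyt1 and Sept11 within days. Those most like AA467197 were Klhl6 (0.94), Ifitm1, Ccr2, Gm42418 and Fcer1g as measured, and Ppp3ca (0.92), Ifitm1 (0.92), Nfic and Ppp2r5a within days, out of 6919 genes. The lists as measured rest on the difference between the days that chose the 2 genes. Ifitm1 was also on the list for AA467197 within days. Besides the cycle gates of CD8 and CD4 T cells, the sums include erythroid cells at day +7 and myeloid cells on both days. In the myeloid sums AA467197 was 226 and 184 CPM and Ggt1 47.8 and 4.23 CPM. The part of the erythroid and myeloid sums in r and in these lists was not tested.

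Depth followed AA467197 at day +14. Over the quartiles of depth of CD8 T cells, from shallow to deep, it was 60.0, 47.0, 26.0 and 21.3 CPM at day +14, and 169, 182, 169 and 117 CPM at day +7. Ggt1 was between 82.6 and 98.3 CPM in the quartiles at day +7 and between 14.1 and 19.2 CPM at day +14, with no steady order. The deepest quartile, at medians of 19430 and 19341 UMIs, therefore showed the lowest level of AA467197 on both days, and non-cycling cells were also the shallowest of the cycle gates, with medians of 6552 and 5553.5 UMIs against 13367 and 12863.5 in mitotic cells. At 4000 UMIs in each cell the shares given above kept this order.

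Outside T cells, the 2 genes parted. The myeloid gate, 62 cells at day +7 and 93 at day +14 with at least 1% of UMIs from 10 myeloid genes, held AA467197 at 226 CPM [194, 262] and 184 CPM [158, 213]. The log2 ratio between the days was -0.30 [-0.61, 0.010], so no difference was detectable at this depth, and the gate was 1.54 times CD8 T cells at day +7 and 6.11 times at day +14. AA467197 was found in 23 of 48 of these cells at day +7 (47.9%) and 31 of 65 at day +14 (47.7%) at 4000 UMIs.

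All UMIs of AA467197 in this gate came from cells with more neutrophil genes (S100a8, S100a9, Ngp, Ltf and Camp) than macrophage genes, a split made after the values had been seen. The 41 and 80 such cells gave 252 and 203 CPM, and the 21 and 13 others, with medians of 3501 and 2149 UMIs per cell, gave 0 UMIs, which allows up to 36.5 and 33.3 CPM by a floor of 3 counts. In myeloid cells with fewer than 3 UMIs of the T cell genes AA467197 was 244 and 282 CPM, at medians of 7639 and 5543.5 UMIs per cell, and in those with at least 3 it was 190 and 102 CPM, at medians of 35733 and 16920. The part of T cell transcripts and of depth in these values was not tested. Ggt1 in the myeloid cells with fewer than 3 was 28.2 CPM (15 UMIs) at day +7 and 0 UMIs at day +14, which allows up to 6.99 CPM by the same floor.

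Erythroid cells, 140 at day +7 and 21 at day +14, gave 29.8 CPM [25.2, 35.0] of Ggt1 and 39.1 CPM [33.8, 44.9] of AA467197 at day +7. As a share of the CD8 level this was 32.3% for Ggt1 and 26.6% for AA467197, beside 31.1% for the T cell genes summed, so both transcripts stood in this gate at about the share of T cell transcripts. At day +14 neither gene had a UMI among 161297, which allows up to 18.6 CPM by a floor of 3 counts, so no fold is given.

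The genes that act with Ggt1 were read in the same cells. Of the 18 genes of the γ-glutamyl cycle and glutathione synthesis, 6 besides Ggt1 reached 10 CPM in either library, the limit used for every list. Of these, 4 were higher and 2 lower at day +14 in all kept cells, with a median log2 ratio of 0.076. The median of all genes, taken at a mean of 10 CPM or more, was 0.18. Gclc and Gclm, the catalytic and modifier subunits of the first enzyme of glutathione synthesis, were at 0.39 [0.28, 0.51] and -0.43 [-0.49, -0.36]. Ggct, which splits γ-glutamyl amino acids inside the cell, went from 40.2 to 43.6 CPM (0.12), and Ggact was at 0.037. The peptidase genes Lap3 and Cndp2, whose products split cysteinylglycine, were at -0.32 and 0.23. In CD8 T cells all 6 were higher at day +14, with a median of 0.15 against 0.19 for all genes. Scaling by the median ratio of genes lowered every log2 ratio in all kept cells by 0.21 and so turned Ggct and Ggact below 0, leaving 2 of the 6 genes higher and 4 lower, in CD8 T cells as well.

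The paralogs of Ggt1 had few UMIs. Ggt5, whose product also cleaves glutathione, had 21 and 35 UMIs in all kept cells and Ggt6 had 0. Ggt7 had 29 UMIs at day +7 and 247 at day +14, a log2 ratio of 3.14 [2.58, 3.75] at 0.334 and 2.95 CPM, the opposite direction to Ggt1 (chosen for mention after its values were seen). Of 10 genes for amino acid carriers and glutathione exporters, 7 reached 10 CPM in either library. Of these, 6 were higher and 1 lower (median 0.36), or 4 and 3 under scaling by the median ratio. The higher genes include Abcc1 and Abcc4, which passed the limit only at day +14, where they are high. The counts and the median are therefore a description. The largest ratios were those of the exporters Abcc1 (0.77, from 6.73 to 11.5 CPM) and Abcc4 (0.66, from 6.65 to 10.5 CPM). The neutral amino acid carrier Slc1a5 (0.55) followed. The cystine carrier Slc7a11 had 29 and 47 UMIs.

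In complex IV, where the AA467197 protein resides, genes at 10 CPM or more moved by far less than AA467197. The latter was chosen by this ratio, so the contrast is a description. Of the 20 listed subunit genes of complex IV, 15 reached 10 CPM, of which 4 were higher and 11 lower at day +14, with a median of -0.15 against 0.18 for all genes, or 1 and 14 under scaling by the median ratio. Ndufa4, whose product AA467197 can replace, was 722 CPM on day +7 and 740 CPM on day +14 (0.035 [0.018, 0.051], below 0 under that scaling), and -0.097 [-0.16, -0.034] in non-cycling CD8 T cells. Among the 15 genes the largest ratios were those of Cox6a1 (-0.30), Cox4i1 (-0.29) and Cox7a2 (0.28). Below the limit, Cox6a2 (72 and 16 UMIs, -2.12 [-3.00, -1.32]), Cox6b2 (475 and 228 UMIs, -1.01) and Ndufa4l2 (8 and 0 UMIs) were lower at day +14. Cox4i2 (5 and 15 UMIs) and Cox7a1 (0.45) were higher. Of 22 assembly factor genes, 18 reached 10 CPM, 6 higher and 12 lower (median -0.076; 1 and 17 under that scaling), led by Coa6 and Coa4 (both -0.42) and Higd1a (0.34).

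NF-κB drives AA467197 in stimulated macrophages, and its subunits and targets were listed for that reason. Of 19 genes, 17 reached 10 CPM, of which 12 were higher and 5 lower at day +14, with a median of 0.25 against 0.18 for all genes, or 9 and 8 under scaling by the median ratio. Birc3 (0.90), an inhibitor of cell death, Icam1 (0.55), an adhesion molecule, and Tnfaip3 (0.50), which dampens the pathway, had the largest ratios. Of these, Birc3 passed the limit of 10 CPM only at day +14, where it is high (9.70 and 18.1 CPM). Its ratio and its part in the 12 higher genes are thus a description.

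**Figure D5:**
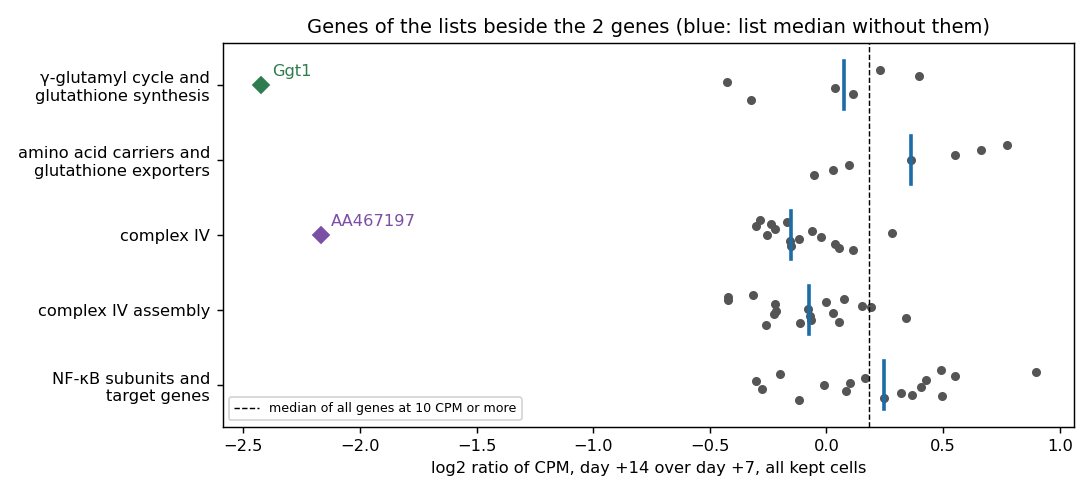
Log2 ratio of CPM at day +14 over day +7 in all kept cells (x axis) for the genes of 5 lists (y axis) at 10 CPM or more in either library (gray points), with the list median without the pair (blue line), Ggt1 (green) and AA467197 (purple), and the median of all genes at a mean of 10 CPM or more (dashed, 0.18). All gray points lie between -0.43 and 0.90, whereas Ggt1 is at -2.42 and AA467197 at -2.17. The pair was chosen by this ratio, so its distance from the lists is a description.

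The neighbors of both genes on the chromosome were read in the same cells. Beside Ggt1, the spliceosome gene Snrpd3 was 225 and 222 CPM (-0.019), Gucd1 0.031 and Cabin1 0.29, while Susd2 (96 and 156 UMIs) was at 0.75 and Lrrc75b had 31 and 15 UMIs. None of these neighbors at 10 CPM or more was lower by more than 0.02. Beside AA467197, Gatm, which encodes an enzyme of creatine synthesis, was also lower at day +14, at 6.72 and 2.57 CPM (583 and 215 UMIs, -1.39 [-1.62, -1.16]). Slc30a4 (228 and 152 UMIs, -0.54), Bloc1s6os (140 and 92 UMIs, -0.56), Spata5l1 (66 and 35 UMIs, -0.87) and 4930417H01Rik (16 and 6 UMIs) were low in both libraries, and the nucleoside carrier gene Slc28a2 was higher (0.72).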

How the data were processed

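UMI counts per gene and cell were deposited by the authors for 2 libraries without normalization, made with Cell Ranger 6.1.2 on mm10 per the file headers and the submitters' processing notes. Counts cover barcodes that passed its cell detection. Here they were read with Python 3.11.15, numpy 2.4.6, scipy 1.17.1 and pandas 2.3.3, and figures drawn with matplotlib 3.10.9. Barcodes with 500 to 7500 genes and at most 15% mitochondrial UMIs were kept. A cell was T if at least 3 UMIs came from 6 TCR and CD3 genes, erythroid if 3 of 10 erythroid genes were detected, and myeloid if at least 1% of UMIs came from 10 myeloid genes. T cells with UMIs of Cd4 and Cd8, of Foxp3 and Cd8, or of none of these, entered no lineage gate (617 and 930 cells), and 1031 and 781 CD8 T cells fell between the cycle gates. Doublets were not called. UMIs were summed over a gate and divided by its total (CPM). Shares used cells thinned to 4000 UMIs with a fixed seed. The Poisson, Clopper-Pearson and conditional binomial intervals, at 95%, cover counting error only. Each day has 1 library, so no p-value is given. The calculations were tested on simulated data. Named genes were the pair, all genes of the γ-glutamyl list at 10 CPM or more, the 3 largest ratios of each other list plus Ndufa4, the 3 neighbors on each side, the 5 genes most like each gene, and the 5 highest ratios between cells with and without it at day +7. The 5 lowest, those of day +14 and the T cells with Foxp3 and Cd8 were added, and a gene among those most like AA467197 is not reported here. The alternatives changed the scaling, total, depth, filters and gates. The genes, the lists and the gates were chosen with earlier results of these data known. Positions come from GENCODE M21 (GRCm38), and sequences and neighbors from RefSeq (GRCm38.p6), in which both genes matched. A protein sequence was not used here.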

Additional observations from a re-analysis of the deposited data

Results flagged for a closer look

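Barcodes left out by the limits on genes and mitochondrial UMIs, 176 at day +7 and 249 at day +14 with medians of 900.5 and 1005 UMIs, also held both transcripts, above the floor of 3 counts (7.90 and 7.05 CPM). Ggt1 was 86.9 CPM (33 UMIs) at day +7 and 18.8 CPM (8 UMIs) at day +14. AA467197 was 68.5 CPM (26 UMIs) at day +7 and 23.5 CPM (10 UMIs) at day +14.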

How the results depend on the processing

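The log2 ratio between the days kept its direction for both genes in 6 gates under the alternatives run, whereas AA467197 in Ifitm-high cells was at 0.21 at 4000 UMIs and -0.13 with all UMIs, and genes of the lists that turned under scaling by the median ratio are given with them. In these gates, 60 alternative values of the log2 ratio between the days for Ggt1 ran from -3.46 to -2.24 and 60 for AA467197 from -2.75 to -1.44, of which 56 and 51 stayed within the counting interval. In all kept cells and in CD8 T cells, scaling by the median ratio of genes gave -2.63 and -2.64 for Ggt1 and -2.38 and -2.50 for AA467197, a shift shared by all genes. For AA467197, the mean of per-cell CPM gave -1.96 and -2.03, and thinning to 4000 UMIs gave -2.07 and -2.13. The unweighted mean over gates, which counts small gates as much as large ones, gave -3.09 for Ggt1 and -2.37 for AA467197. The cause of the shifts with per-cell weighting and thinning was not tested. The ratio of AA467197 in non-cycling over mitotic CD8 T cells ran from 0.32 to 1.57 over both days under alternatives chosen after the data were seen, and that of Ggt1 from -1.14 to -0.23. Some values left the counting interval of the main one. At day +7, AA467197 moved from 0.53 to 0.35 when thinned and 0.32 without the deepest 10% of cells, and Ggt1 from -0.25 to -0.47 when thinned. At day +14, AA467197 moved from 1.53 to 1.33 without the deepest cells. No paired analysis was possible because each day has 1 library and no replicate. The spread between mice is unknown, and the Ifitm-high, Foxp3+, myeloid and erythroid values at day +14 rest on few cells.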
